A study of Homo sapiens with 4 samples.

Results

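SRSF5 and 9 further SR splicing factor genes (SRSF1, SRSF2, SRSF3, SRSF4, SRSF6, SRSF7, SRSF9, SRSF10 and SRSF11) were followed across the 4 libraries of the series, 10 genes of the 78686 features in the count tables. They were listed by family name and matched by Ensembl identifier. SRSF5 alone was picked by its value, a higher level in knockout than in wild-type libraries, so its difference is described without a test, and the question put to the other 9 was whether they moved with it. RNA with poly(A) tails was sequenced from 2 libraries (replicates 1 and 2) of HEMK1 KO HEK293 cells and 2 libraries of WT HEK293 cells. HEK293 is an aneuploid line derived from human embryonic kidney, and HEMK1 is a methyltransferase of mitochondrial release factors. The KO cells were clone 1F8, expanded from 1 sorted cell after pooled Cas9 plasmids with different guides against HEMK1 had been introduced, and the labels mention no cloning of the WT cells. Loss of HEMK1 and any other difference of that clone from the WT population therefore cannot be told apart. The labels call the replicates biological but do not tie equal numbers to a shared culture, so a p-value rests on the variation among libraries of 1 clone and of 1 WT population.

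SR proteins bind exonic enhancer sequences through RNA recognition motifs and recruit the spliceosome through a tail rich in arginine and serine. SRPK and CLK kinases phosphorylate that tail, which controls their import into the nucleus and their release from nuclear speckles. Many SR genes hold poison exons, whose inclusion sends the transcript to nonsense-mediated decay, so that SR proteins limit their own level and that of their relatives. Counts per gene, as used here, add productive and poison-exon transcripts together.

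Total counts per library lay between 2476471 and 3202039. HEMK1 itself had 1 and 7 counts in KO libraries and 6 and 9 counts in WT libraries, too few to check the labels. Of 10 genes listed as markers of HEK293 cells, 9 had at least 1 count and PAX2 was at 0 in every library; their summed level was 470.1 and 403.5 CPM (counts scaled to a common library size, here by the library total) in KO libraries and 493.8 and 518.4 CPM in WT libraries. Of 12 blood and immune genes 10 had at least 1 count, and their sum was 3.15 and 9.99 CPM in KO libraries and 0 and 0.749 CPM in WT libraries. In KO libraries HBB had 4 and 11 counts, HBA2 4 and 2 counts and LYZ 0 and 13 counts. Each of these genes had 0 counts in both WT libraries. The B cell gene MS4A1 and the macrophage gene CD68 were at 0 throughout. Of 9 markers of fibroblasts and endothelium 6 had at least 1 count, with a sum of 44.1 and 32.5 CPM in KO and 29.9 and 27.7 CPM in WT libraries. LUM had 86 and 80 counts in KO and 52 and 39 counts in WT libraries, and COL1A2, DCN and CDH5 were at 0. Of these 9 markers 2 were tested by edgeR, 0 were called and 2 had a log2 fold change above 0. LUM was higher at an unadjusted p under 0.05, as were 4.09% of all tested genes. Of the HEK293 markers 7 were tested by edgeR, 0 were called and 3 (VIM, KRT8 and KRT18) were lower at an unadjusted p under 0.05. Over all tested genes 8.43% had such a p in either direction. The median log2 fold change of the 7 was −0.36, and 2 were above 0. NEFL had 108 and 129 counts in KO and 76 and 96 in WT libraries, and ZIC2 460 and 383 in KO and 287 and 352 in WT libraries. Without KO replicate 1 the log2 fold change of VIM was −0.82. The part of these genes in the values of the SR genes was not tested. In bulk RNA, fewer cells with a transcript and less of it per cell cannot be told apart.

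SRSF5 (SRp40), an SR protein with a pair of RNA recognition motifs, lies on the plus strand of chromosome 14 at positions 69726900 to 69772005 of GRCh38 in the GENCODE 29 annotation. It had 1604 and 1799 counts in KO libraries, against 784 and 679 counts in WT libraries. Scaled by TMM library sizes these were 558.2 and 579.4 CPM in KO libraries and 325.6 and 252.3 CPM in WT libraries. Both KO libraries lay above both WT libraries, and the KO libraries were closer to each other than the WT libraries were. The means were 569 ± 15.02 CPM in KO and 289 ± 51.8 CPM in WT libraries (SD, n = 2 each), a 1.97-fold difference with a log2 fold change of 0.98 ± 0.15 (SE). In the authors' deposited table its log2 fold change was also 0.98. These are the values by which the gene was chosen.

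SRSF4 (SRp75) and SRSF6 (SRp55) are the nearest relatives of SRSF5 in the family, and the promoters of the 3 genes are shown so that the start of the gene chosen here can be read beside those of its closest paralogues. Each runs from 250 bases before to 50 bases after the RefSeq transcription start in build GRCh38.p14, 5′ to 3′ on the strand of the gene. Capitals mark matches to any of 5 motifs searched on both strands, the TATA box TATAAA, the CCAAT box CCAAT, the GC box GGGCGG, the ETS site CCGGAAGT and the letters TGACGT from the cAMP response element.
SRSF5, chr14:69766892-69767191, plus strand: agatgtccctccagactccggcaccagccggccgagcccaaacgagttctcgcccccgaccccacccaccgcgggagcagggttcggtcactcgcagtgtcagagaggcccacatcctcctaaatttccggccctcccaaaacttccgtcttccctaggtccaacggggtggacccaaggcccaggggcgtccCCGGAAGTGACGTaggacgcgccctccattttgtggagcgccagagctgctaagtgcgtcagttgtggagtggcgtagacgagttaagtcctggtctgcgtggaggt
SRSF6, chr20:43457646-43457945, plus strand: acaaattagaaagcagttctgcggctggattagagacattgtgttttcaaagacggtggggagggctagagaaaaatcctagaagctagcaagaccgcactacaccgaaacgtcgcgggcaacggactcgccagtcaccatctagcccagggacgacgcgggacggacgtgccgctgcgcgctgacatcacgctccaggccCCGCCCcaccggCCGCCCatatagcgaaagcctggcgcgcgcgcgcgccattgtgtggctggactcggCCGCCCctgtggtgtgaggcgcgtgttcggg
SRSF4, chr1:29181851-29182150, minus strand: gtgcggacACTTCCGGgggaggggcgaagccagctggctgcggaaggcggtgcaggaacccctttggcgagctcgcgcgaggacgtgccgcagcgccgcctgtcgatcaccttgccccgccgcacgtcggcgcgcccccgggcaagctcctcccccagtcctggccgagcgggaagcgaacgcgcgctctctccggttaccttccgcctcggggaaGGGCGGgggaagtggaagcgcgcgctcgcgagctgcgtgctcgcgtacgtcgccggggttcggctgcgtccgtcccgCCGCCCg
In the SRSF5 promoter the ETS letters lay at −57 to −50 and the TGACGT letters at −50 to −45, counting the start as 0, so that the 2 matches share 1 base. The SRSF6 promoter held 3 GC boxes, read on the opposite strand, and neither of the SRSF5 motifs. The SRSF4 promoter held 2 GC boxes and an ETS match on the opposite strand at −242 to −235. Of 35116 RefSeq promoters of this length, 4.14% held the ETS letters, 7.98% TGACGT, 45.0% the GC box, 34.6% CCAAT and 11.5% TATAAA. The table held 11 promoters of 9 of the 10 SR genes, all but SRSF2, of which 3 held TGACGT (SRSF1, SRSF3 and SRSF5), 2 the ETS letters (SRSF4 and SRSF5), 5 the GC box, 1 CCAAT (SRSF3) and 3 TATAAA (SRSF3, SRSF7 and SRSF11). A match is a description of these letters and not a site shown to be bound.

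SRSF6 came nearest to SRSF5 in its difference but was not called. It had 4053 and 4110 counts in KO libraries, against 1970 and 2620 counts in WT libraries, or 1410 and 1324 CPM in KO and 818.1 and 973.6 CPM in WT libraries. The groups did not overlap. Its means were 1367 ± 61.3 CPM in KO and 896 ± 110 CPM in WT libraries (SD, n = 2 each), a 1.53-fold difference with a 95% interval of 1.22 to 1.91. The log2 fold change was 0.61 ± 0.15 (SE). The quasi-likelihood test of edgeR gave an unadjusted p of 0.00149 and, after Benjamini-Hochberg adjustment over all genes, an adjusted p of 0.177. In the authors' deposited table the adjusted p of SRSF6 was 0.112. The call depended on the filter on low counts, since with no filter edgeR gave an adjusted p of 0.00415 at a log2 fold change of 0.61, while over all alternatives it lay between 0.00415 and 0.520. The WT libraries stood in opposite order for the 2 genes: WT replicate 2 was lower than WT replicate 1 for SRSF5 (log2 ratio −0.37) and higher for SRSF6 (0.25).

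SRSF4 was the 1 paralogue with a log2 fold change below 0. It was also the least abundant, with 29 and 30 counts in KO libraries and 25 and 39 counts in WT libraries. The values were 10.1 and 9.66 CPM in KO and 10.4 and 14.5 CPM in WT libraries, so that both KO libraries lay below both WT libraries by a narrow margin. The fold of KO over WT was 0.791 with a 95% interval of 0.482 to 1.30 (edgeR adjusted p = 0.851), on the log2 scale the widest interval of the 9 paralogues. Without WT replicate 2 the log2 fold change was −0.10, against −0.34 with all libraries.

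Over the 9 paralogues, 0 were called higher and 0 lower by edgeR at an adjusted p under 0.05. Of the 10670 genes tested, 0.0469% were called higher and 0.281% lower in KO libraries, or 0.328% in either direction. At an unadjusted p under 0.05, 1 of the 9 (SRSF6) was higher and 0 were lower, against 4.09% of tested genes higher and 8.43% in either direction. DESeq2 called 0 of the 9 as well, as did the authors' deposited table. All 10 genes passed the filter on low counts. The log2 fold change was above 0 for 8 of the 9 paralogues, against 51.2% of tested genes, with a median of 0.17 against 0.00919 over all tested genes. Without WT replicate 2 the median of the paralogues was 0.10, and without KO replicate 2 it was 0.25. In CPM, 5 of the 9 had both KO libraries above both WT libraries (SRSF2, SRSF3, SRSF6, SRSF9 and SRSF11), against 21.2% of tested genes. For 1 (SRSF4) both were below, against 18% of tested genes, and for 3 (SRSF1, SRSF7 and SRSF10) the groups overlapped. The upper bound of the 95% interval was under a 2-fold rise for all 9, with SRSF6 the highest at 1.91.

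**Figure D1:**
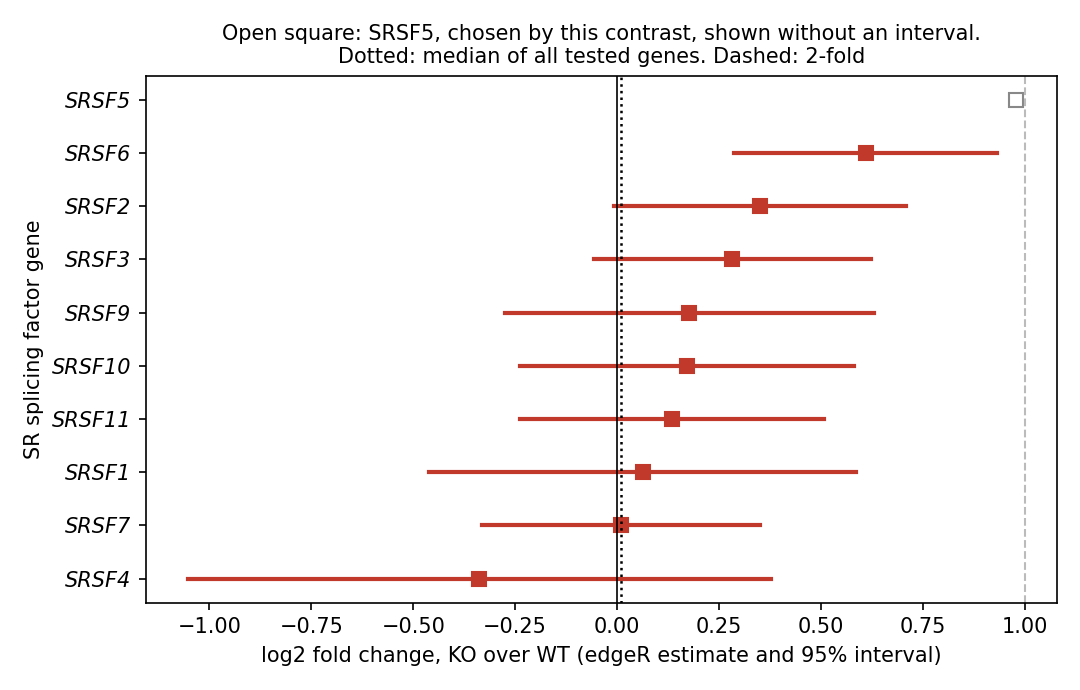
Log2 fold change of KO over WT for the 10 SR genes, from the edgeR fit of 2 KO and 2 WT libraries. Squares are estimates and lines are 95% intervals; SRSF5, at 0.98, was chosen by this contrast and carries no interval. SRSF6 at 0.61 lies next, the interval of SRSF4 is the widest of those drawn, and the 9 intervals all end below the dashed line at a 2-fold rise.

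SRSF3 and SRSF7, small SR proteins with a single RNA recognition motif that also serve as adaptors for mRNA export, were among the most abundant SR genes. SRSF3 had 5151 and 5393 counts in KO libraries and 3881 and 3473 counts in WT libraries, or 1792 and 1737 CPM in KO and 1612 and 1291 CPM in WT libraries. The groups did not overlap, but the WT libraries lay 0.32 apart on the log2 scale, more than the KO to WT difference of 0.28 ± 0.15 (SE; edgeR adjusted p = 0.664). The fold of KO over WT was 1.22 with a 95% interval of 0.962 to 1.54. SRSF7 had 767.6 and 995.5 CPM in KO libraries, on either side of the 845.5 and 905.9 CPM of the WT libraries. Its fold was 1.01 with an interval of 0.795 to 1.28, and its log2 fold change of 0.0097 turned to −0.00784 with DESeq2-type size factors.

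SRSF1 and SRSF2, the SR proteins studied earliest as splicing factors, and SRSF9, a close relative of SRSF1, had low counts in every library. SRSF2 had 110.3 and 103.1 CPM in KO libraries and 76.4 and 90.7 CPM in WT libraries, with no overlap and a difference of 0.35 ± 0.16 on the log2 scale (SE; edgeR adjusted p = 0.594). Its fold was 1.28 with a 95% interval of 0.995 to 1.63. SRSF9 had 38.6 and 39.6 CPM in KO and 31.6 and 37.5 CPM in WT libraries (log2 fold change 0.18). SRSF1 had 40.4 and 28.3 CPM in KO libraries, which spanned the 29.5 and 36.0 CPM of the WT libraries (log2 fold change 0.06, and −0.24 without KO replicate 1). These 3 genes also share their exons with other genes in GENCODE 29. For SRSF1, 60.7% of exon bases lay in exons of other genes, mostly in ENSG00000266086, a protein-coding gene on the same strand that was listed at 0 in all 4 libraries. For SRSF9 the share was 46.2%, all in GATC on the opposite strand, and for SRSF2 it was 36.7%, in MFSD11 on the opposite strand. GATC had 129 and 110 counts in KO and 83 and 101 counts in WT libraries, and MFSD11 had 110 and 132 counts in KO and 88 and 83 counts in WT libraries. HTSeq can leave out reads that fall on more than 1 gene, and the sources used here do not state its mode or strand setting, so the levels of SRSF1, SRSF2 and SRSF9 are uncertain and the part of the overlaps in them was not tested.

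SRSF10, which represses splicing when it loses its phosphates, and SRSF11 completed the family. SRSF10 had 76.9 and 69.2 CPM in KO libraries and 73.1 and 56.9 CPM in WT libraries, and the groups overlapped (log2 fold change 0.17, and −0.03 without WT replicate 2). SRSF11 had 72.0 and 70.2 CPM in KO libraries and 66.9 and 62.8 CPM in WT libraries, with the KO libraries just above (log2 fold change 0.13). The edgeR adjusted p was 0.878 for SRSF10 and 0.906 for SRSF11. The exons of SRSF3, SRSF5, SRSF6, SRSF7, SRSF10 and SRSF11 shared 0 bases with other genes in GENCODE 29, and those of SRSF4 1.90%.

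**Figure D2:**
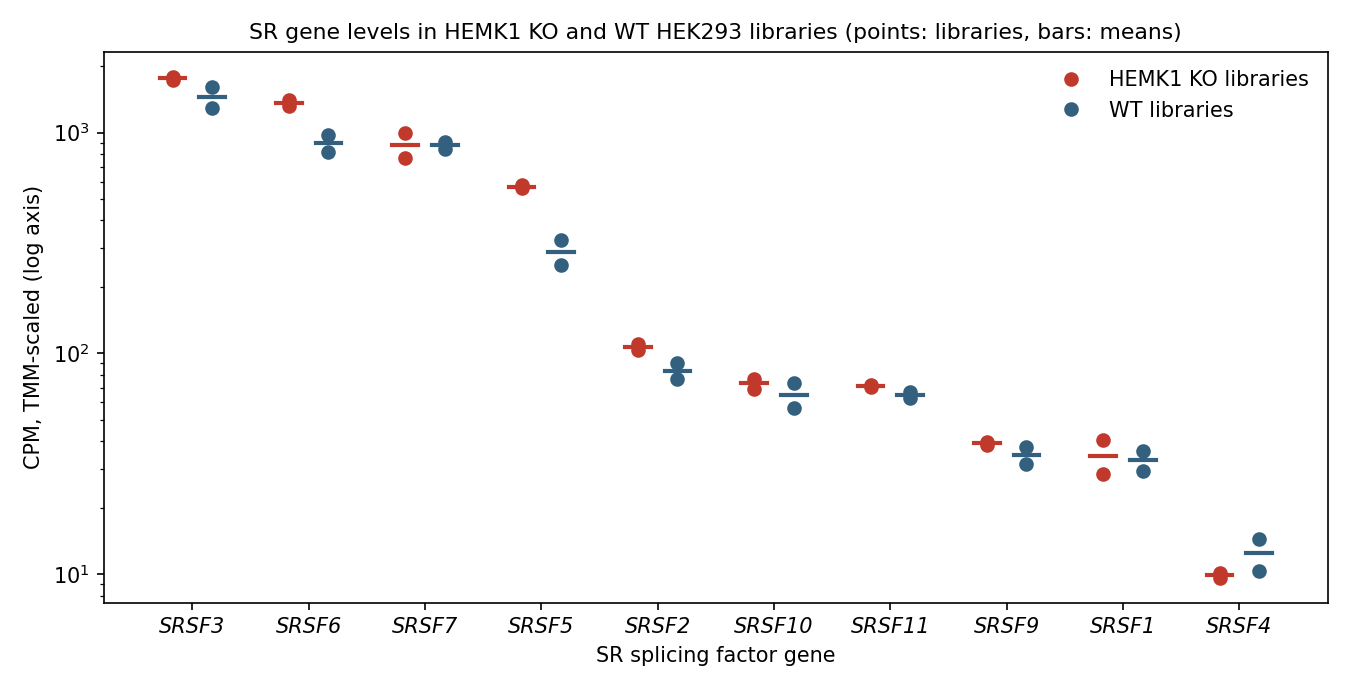
Level of each SR gene in CPM on a log axis, with KO libraries to the left of WT libraries; points are libraries and bars are group means. SRSF5 shows the widest gap between groups (558.2 and 579.4 CPM in KO, 325.6 and 252.3 CPM in WT libraries), SRSF6 the next, and SRSF7 and SRSF1 overlap.

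Transcripts of the 4 most abundant SR genes shared little sequence with other genes. Of the distinct 50-base stretches in GENCODE 29 transcripts of SRSF5, 0.766% also occurred in a transcript of another gene, and for SRSF7 0%, SRSF3 0.493% and SRSF6 5.97%. For SRSF6 these all matched 1 gene, AC005822.1. Of 11 pseudogenes in the count tables named after these genes, only the SRSF3 copies SRSF3P1 (13 and 16 counts in KO, 18 and 8 counts in WT libraries) and SRSF3P4 (3 and 10 counts in KO, 8 and 4 counts in WT libraries) reached 10 counts in a library. Both are small beside the counts of SRSF3 itself, the lowest of which was 3473.

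Levels between genes can be compared only per length, and RPKM (CPM divided by the length of the merged exons in kilobases) was used for this. SRSF6, SRSF3 and SRSF7 were the highest of the family in both groups. SRSF6 averaged 298 ± 13.3 RPKM in KO and 195 ± 23.9 RPKM in WT libraries (SD, n = 2 each). SRSF3 averaged 248 ± 5.52 RPKM in KO and 204 ± 31.9 RPKM in WT libraries, and SRSF7 218 ± 39.8 RPKM in KO and 216 ± 10.6 RPKM in WT libraries. In KO libraries SRSF6 came first, whereas in WT libraries SRSF7 came first and the ranges of neighbours among the 3 overlapped. SRSF5 had rank 4 in both groups, with 104.2 and 108.2 RPKM in KO libraries and 60.8 and 47.1 RPKM in WT libraries. Its WT range was apart from that of SRSF6 above it and of SRSF2 (25.3 and 30.1 RPKM in WT libraries) below it. The exon overlaps given above leave the levels and ranks of SRSF1, SRSF2 and SRSF9 uncertain, and with them the gap between SRSF5 and SRSF2. SRSF1 at 9.81, SRSF9 at 9.23, SRSF11 at 7.65, SRSF10 at 6.32 and SRSF4 at 1.40 RPKM in WT libraries made up the rest, of which SRSF1 and SRSF9 overlapped with each other. The order in WT libraries depended on the length used. With the longest transcript in place of merged exons SRSF3 (344 RPKM) came before SRSF7 (307 RPKM) at the top, and among the rarer genes SRSF1 had rank 9. SRSF5 kept rank 4 with that length and with library totals in place of TMM.

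The 10 genes together took a larger part of the libraries of the KO clone. Their summed counts were 0.491% and 0.481% of all counts in KO libraries and 0.378% and 0.375% in WT libraries. Summed levels were 4916 ± 55.7 CPM in KO and 3805 ± 119 CPM in WT libraries (SD, n = 2 each), a ratio of 1.29. Of the difference in summed CPM, SRSF6 made up 42.4%, SRSF3 28.2% and SRSF5 25.2%, and the other 7 genes the small remainder. Without SRSF5 the ratio was 1.24, and without SRSF5 and SRSF6 it was 1.14. No p is given for these sums, as SRSF5 was chosen by its value, and 2 against 2 libraries can give no smaller exact two-sided permutation p than 0.33.

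Within the family, SRSF5 held 11.4% and 11.7% of SR counts in KO libraries, against 8.37% and 6.78% in WT libraries. These shares rest on the values that chose SRSF5 and are a description. Their 95% Wilson intervals, which give the counting error of each library and are no test of the difference, were 10.9% to 12.0% and 11.2% to 12.2% in KO libraries and 7.83% to 8.95% and 6.31% to 7.29% in WT libraries. SRSF7, whose own level had a fold of 1.01, held 15.7% and 20.1% in KO and 21.7% and 24.3% in WT libraries. The shares in a library sum to 100%, so a lower share does not mean a lower level. SRSF6 held 28.9% and 26.7% in KO libraries and 21.0% and 26.2% in WT libraries, so that KO replicate 2 and WT replicate 2 were nearly equal. SRSF3 held 36.8% and 35.0% in KO libraries, inside the span of 41.4% and 34.7% in WT libraries. These shares do not depend on how libraries are scaled.

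**Figure D3:**
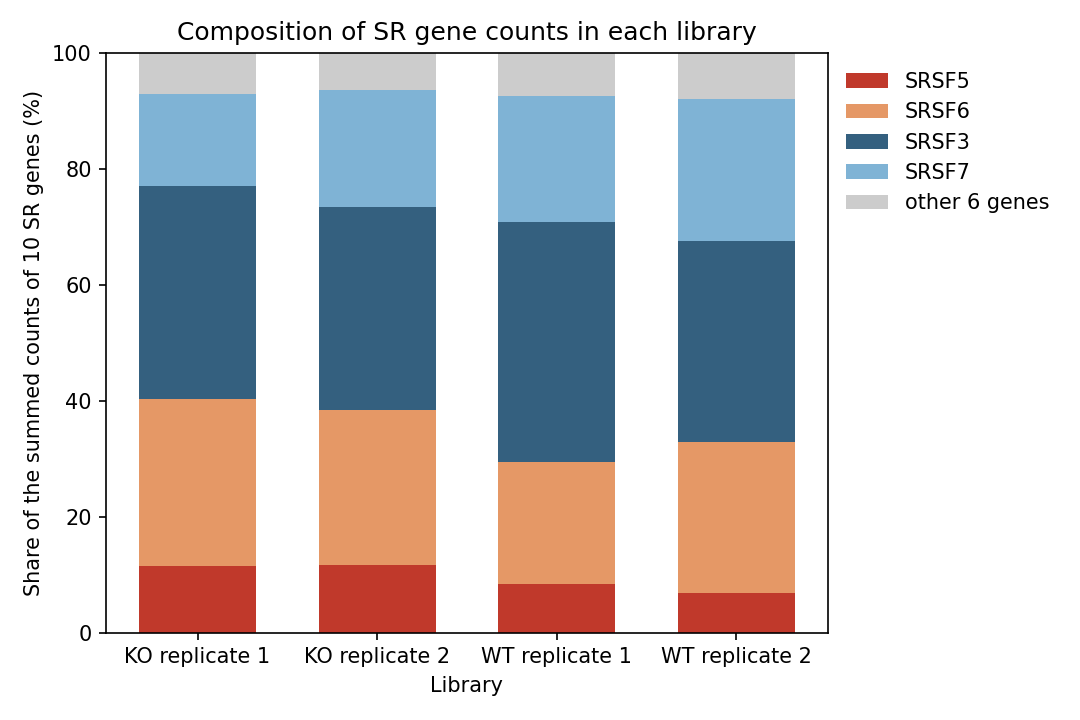
Share of the summed counts of the 10 SR genes held by SRSF5, SRSF6, SRSF3, SRSF7 and the other genes, in % per library, with KO libraries on the left. The SRSF5 segment is 11.4% and 11.7% in KO and 8.37% and 6.78% in WT libraries, and the SRSF7 segment is smaller in both KO libraries (15.7% and 20.1%) than in both WT libraries (21.7% and 24.3%), while the SRSF7 level itself overlapped between groups.

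Genes were also ranked by how like that of SRSF5 their pattern over the 4 libraries was. Among 8440 named genes averaging 5 CPM or more, the 5 at the smallest Euclidean distance between log2 CPM centred on each gene's mean were CALCRL, LINC00839, IQGAP2, DUSP12 and SNN. CALCRL, the calcitonin receptor-like receptor, was nearest (distance 0.110) and had 12.9 and 14.8 CPM in KO libraries and 7.48 and 5.95 CPM in WT libraries. The distance of SRSF6 was 0.583, rank 311, and that of SRSF3 0.700, rank 684. SRSF4 was the farthest paralogue, at 1.41 and rank 7113. With 4 libraries in 2 groups, this measure uses the same contrast by which SRSF5 was chosen. With 9 SR paralogues among 8440 genes, the absence of SR genes from the nearest 5 is no result about the family. LINC00839 and SNN had low counts, from 8 to 22 per library.

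Of 4 further SR and SR-like genes, 0 were called by edgeR or DESeq2 and 0 had an unadjusted p under 0.05 by edgeR. The edgeR shares over all tested genes were 0.328% and 8.43%. SRSF8, a retrogene related to SRSF2, had 28.5 and 21.6 CPM in KO libraries and 17.4 and 21.9 CPM in WT libraries (log2 fold change 0.34; edgeR adjusted p = 0.784). SRSF12, a relative of SRSF10, had 8.35 and 8.70 CPM in KO and 8.31 and 7.06 CPM in WT libraries. The transformer-2 proteins, which carry a similar tail on either side of the RNA recognition motif, were measured too: TRA2A had 197 and 188 CPM in KO and 213 and 219 CPM in WT libraries (log2 fold change −0.17), and TRA2B had 47.7 and 49.9 CPM in KO and 50.7 and 44.2 CPM in WT libraries (0.04).

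Among kinases, phosphatases and import factors of SR proteins, 14 of 17 listed genes were tested and 0 were called by edgeR or DESeq2. By edgeR 1 had an unadjusted p under 0.05, and the median log2 fold change was −0.04. Of all tested genes edgeR called 0.328% and gave 8.43% an unadjusted p under 0.05. CLK1, a nuclear kinase of SR proteins, had the smallest p. It had 29.2 and 34.8 CPM in KO libraries and 16.6 and 24.2 CPM in WT libraries, or 0.64 ± 0.25 on the log2 scale (SE; edgeR unadjusted p = 0.0263, adjusted p = 0.499). Its relative CLK4 had 33.1 and 34.5 CPM in KO and 31.98 and 33.1 CPM in WT libraries. The cytoplasmic kinases SRPK1 and SRPK2 had log2 fold changes of 0.07 ± 0.14 and 0.03 ± 0.16, and TNPO3, which imports SR proteins into the nucleus, −0.11 ± 0.20 (SE), each with overlapping groups.

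The SR-related proteins, which carry the same kind of tail but act as coactivators or scaffolds, had no called gene. Of 42 listed, 32 were tested, 25 had a log2 fold change above 0 (51.2% of all tested genes did), and the median was 0.14 against 0.00919 over all tested genes. The smallest p was that of BCLAF1, at 502 and 483 CPM in KO libraries and 413 and 344 CPM in WT libraries (log2 fold change 0.38 ± 0.14, SE; edgeR adjusted p = 0.459). The list of exon junction complex and nonsense-mediated decay factors, the pathway that removes poison-exon transcripts, had 14 tested genes with a median of 0.18. MAGOHB, an exon junction subunit, had 196 and 177 CPM in KO and 151 and 140 CPM in WT libraries (0.36 ± 0.14; edgeR adjusted p = 0.499). The hnRNP proteins, which often oppose SR proteins at the same exons, had 27 tested genes with a median of 0.13 and 18 above 0, beside the same 51.2% of all tested genes. Their smallest p was that of HNRNPL, which had 16.7 and 14.8 CPM in KO libraries and 24.9 and 28.98 CPM in WT libraries (−0.78 ± 0.25; edgeR adjusted p = 0.352). In these 3 lists 0 genes were called by edgeR or DESeq2. At an unadjusted p under 0.05 by edgeR there were 2 SR-related genes and 1 decay factor higher and 1 hnRNP gene lower. Of all tested genes edgeR called 0.328%, and 8.43% had an unadjusted p under 0.05. With a library left out, the hnRNP median lay between −0.00403 (without KO replicate 1) and 0.11, being 0.01 without either WT library, and the SR-related median between 0.07 and 0.20.

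The core spliceosome had medians near that of all tested genes. Factors of the U1 particle and 3′ splice site (15 of 21 tested) showed a median of 0.03 on the log2 scale. SNRPC was the only U1 particle protein tested, so that median describes mainly the 3′ splice site factors. The Sm core, tri-snRNP and catalytic factors (34 of 37 tested) had a median of 0.00600. By edgeR 0 genes were called in either list, and 1 and 2 had an unadjusted p under 0.05. ZRSR2, which recognises the 3′ splice site of minor introns, had the smallest p of the first list (16.0 and 11.6 CPM in KO, 7.48 and 8.92 CPM in WT libraries) and SNRPD3, an Sm protein, that of the second (72.0 and 99.2 CPM in KO, 61.0 and 56.9 CPM in WT libraries). Export factors that work with SR proteins (11 of 16 tested) had a median of −0.16, and ALYREF, the exon-bound export adaptor, had 5 and 9 counts in KO and 20 and 13 counts in WT libraries. Genes of components or regulators of nuclear speckles, where SR proteins gather, and of paraspeckles (11 of 11 tested) had a median of −0.27. It moved to between −0.16 and −0.10 with any 1 of the 4 libraries left out. SON and SRRM2 were also counted among the SR-related proteins, and PRPF6 in the Sm core list. NEAT1, the RNA scaffold of paraspeckles, had 82.5 and 67.0 CPM in KO libraries and 86.0 and 116 CPM in WT libraries (log2 fold change −0.44 ± 0.19, SE; edgeR adjusted p = 0.567). The export and speckle lists had 0 genes called by edgeR and 1 each at an unadjusted p under 0.05. Beside the counts of the core, export and speckle lists, 0.328% of all tested genes were called and 8.43% had an unadjusted p under 0.05.

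**Figure D4:**
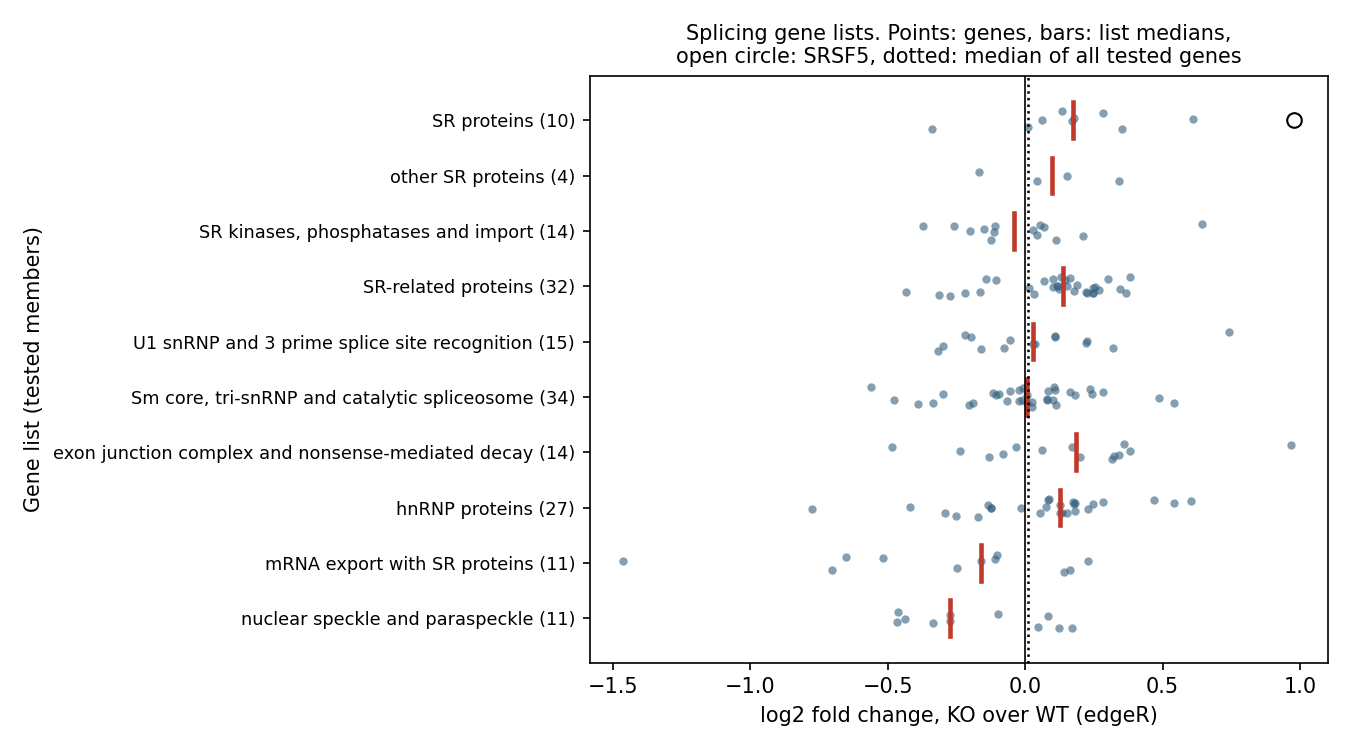
Log2 fold change of KO over WT for the tested genes of 10 splicing lists, with the number tested in parentheses; points are genes and bars are list medians. The highest medians are those of exon junction and decay factors (0.18), SR proteins (0.17, SRSF5 included), SR-related proteins (0.14) and hnRNP proteins (0.13). They lie right of the dotted median of all tested genes. The speckle list (−0.27) and the export list (−0.16) have the lowest medians and lie left of it. With a library left out the speckle median was between −0.16 and −0.10 and the hnRNP median between −0.00403 and 0.11. The median of the SR paralogues without SRSF5 was then between 0.10 and 0.25. SRSF5 is the open circle at 0.98.

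On chromosome 14, edgeR tested 14 other genes within 1 Mb of SRSF5. Of these, 0 were called and 0 had an unadjusted p under 0.05, and their log2 fold changes had −0.03 as median. Over all tested genes edgeR called 0.328% and gave 8.43% such a p. With shares this small, 0 of 14 cannot show that the neighbourhood was unchanged. Of the nearest genes on the left, SLC39A9, a zinc transporter, had 323 and 316 CPM in KO and 333 and 317 CPM in WT libraries, and SUSD6 had 19.1 and 14.8 CPM in KO and 18.7 and 28.6 CPM in WT libraries. On the right, the pseudogene RPL7AP6 had 118 and 129 CPM in KO and 210 and 121 CPM in WT libraries, and the long non-coding RNA ENSG00000259033 had 120 and 114 CPM in KO and 101 and 90.7 CPM in WT libraries.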

How the data were processed

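Polyadenylated RNA of 2 KO and 2 WT libraries was analysed. The submitters' processing notes name hg38 and the tools FastQC, Trimmomatic, STAR, HTSeq and DESeq2; versions, annotation release and strand setting are not given. The authors deposited whole-number counts for each gene from HTSeq without normalization, and 0 of the 78686 features hold totals or unassigned reads. The authors' deposited comparison table gives a base mean (a signal, counts divided by size factors), the KO to WT log2 fold change, its standard error and Wald score, and a p-value and adjusted p-value; it was used only where named.

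Genes were kept by filterByExpr at a minimum count of 10 and libraries scaled by TMM. Genotype was the single term of a robust quasi-likelihood model in edgeR 4.0.16 (R 4.3.3), with Benjamini-Hochberg adjustment over 10670 genes and a threshold of 0.05; the fit was tested on simulated data. HEMK1 did not pass the filter. Log2 CPM used a prior count of 2. Positions, exon lengths and transcripts are those of GENCODE 29, which may differ from the authors' annotation, and promoters are those of RefSeq. Replicates differed by more than sampling noise (chi-square per degree of freedom 5.38 for KO and 5.01 for WT libraries), so each counted once.

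The genes and lists were chosen with earlier results of these data known. Named genes are the 10 SR genes, SRSF8, SRSF12, TRA2A, TRA2B, HEMK1, fixed kinases and TNPO3, the gene of smallest p in each list, overlapping genes, pseudogenes with at least 10 counts, the 2 nearest tested genes on each side of SRSF5 and the 5 most alike in pattern. Alternatives were DESeq2 1.42.0, DESeq2-type size factors in edgeR, library totals, no filter, a replicate block and each library left out, where the lone library of a group is assumed to vary like the other group.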

Additional observations from a re-analysis of the deposited data

How the results depend on the processing

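With 2 libraries a group, all 9 SR paralogues had p-values that missed the threshold, which does not show equal levels. Of these 9, 0 were called in any alternative except that with no filter 1 (SRSF6) was called higher, at a log2 fold change of 0.61 (edgeR adjusted p = 0.00415). That setting called 31 genes higher and 125 lower of the 28313 it tested. SRSF5 lay between 0.77 and 1.17 with a library left out, lowest without WT replicate 2 (0.77). SRSF1 lay between −0.24 and 0.30 over the libraries left out in turn, with −0.07 without WT replicate 1. SRSF7 lay between −0.19 and 0.15, with −0.04 without WT replicate 1, −0.00784 with DESeq2-type size factors and −0.00121 with a replicate block. SRSF10 lay between −0.0334 and 0.36. SRSF2, SRSF3, SRSF4, SRSF6, SRSF9 and SRSF11 kept their direction in all 9 alternatives, but not their size: without WT replicate 2, SRSF3 was at 0.10, SRSF4 at −0.10 and SRSF11 at 0.06, and without WT replicate 1 SRSF9 was at 0.06. Medians of the kinase, U1 and 3′ splice site, Sm core, further SR and hnRNP lists changed sign with a library left out. Over all genes, 5 called higher and 30 lower became 31 and 125 with no filter and 29 and 111 with a replicate block, and lay between 1 and 25 higher and 3 and 164 lower with a library left out. Calls in the other splicing lists were 0 in every alternative that kept all 4 libraries. In the U1 and 3′ splice site list, SNRPC was at −0.76 and SF3B5 at −1.14 without KO replicate 2. Both were named after their values were seen, and that fit rests on 1 KO library. The causes were not tested. Deviations of replicates with equal numbers correlated at −0.0348 across genes, a value that cannot exclude a pairing of libraries. The replicate block changed no call among the 9 paralogues, though it changed the calls over all genes as given above. SRSF5 held 3.99 percentage points more of the SR counts in KO than in WT libraries, and 3.20 to 4.79 with a library left out.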
